A study of Mus musculus with 35 samples.

Results

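The genes described here code for complement components, receptors and a regulator: C1qa, C1qb, C1qc, C3, C4b, Cfb, Serping1, C3ar1 and C5ar1. They were chosen by name, and every probe set that the array's annotation assigned to them was taken. Of the 9 genes, 7 had a probe set of their own among the 18193 genes tested, with 12 probe sets between them among 34945 that carried 1 gene symbol. C4b was measured only by a probe set that is also listed for C4a, and it is reported as that shared probe set. No probe set was listed for C3 in the annotation used, so C3 was not analysed here.

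RNA came from brain hemispheres of male mice on the FVB background and was measured on Affymetrix mouse arrays as log2 signals. The surgery arrays were 7 from beta2 adrenergic receptor knockout mice after middle cerebral artery occlusion (KO MCAO), 3 from knockout mice after sham surgery (KO sham), 7 from wild type mice after occlusion (WT MCAO) and 3 from wild type mice after sham surgery (WT sham). These were taken 24 h after surgery, from the ischemic hemisphere after MCAO and the control hemisphere after sham surgery. A further 7 knockout (KO naive) and 8 wild type (WT naive) arrays came from mice without surgery and were normalized apart, so no naive value was set against a surgery value. The labels name no promoter or Cre for the knockout, and a hemisphere mixes infarcted and surviving tissue with all its cell types. In such tissue, fewer cells of a type and less RNA per cell cannot be told apart. The labels number the arrays without saying that each is a separate animal, so p-values measure the spread between arrays.

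Complement is a cascade of proteins that tags and destroys targets. C1q, built from the chains of C1qa, C1qb and C1qc, recognises targets and activates the proteases C1r and C1s, which cleave C4 and C2. Factor B serves the alternative pathway, and both routes cleave C3 and then C5, releasing the small fragments C3a and C5a that act on the receptors C3AR1 and C5AR1. In the brain, microglia are the main source of C1q, astrocytes make C4 and C3, and the receptors lie mostly on microglia and on blood-borne myeloid cells.

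The C1q genes lie next to each other on mouse chromosome 4 (GRCm38.p6): C1qb at 136880126 to 136886200, C1qc at 136889801 to 136892936 and C1qa at 136895916 to 136898844. C4b lies on chromosome 17 at 34728139 to 34743902 and Cfb on the same chromosome at 34856374 to 34862514. Serping1 lies on chromosome 2 at 84765360 to 84775444, C3ar1 on chromosome 6 at 122847140 to 122856157 and C5ar1 on chromosome 7 at 16246743 to 16259540. Which exon each probe set reads is not given in the sources used here.

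RefSeq promoter windows of GRCm38.p6, which run 250 bases before to 50 after a gene's start, were at hand for 4 of these genes: C1qb, C1qc, C3ar1 and C5ar1. The windows of C1qb and C1qc are shown because these neighbours moved together across KO MCAO and across WT naive arrays, as described further on. In WT MCAO and in KO naive arrays the pair did not pass its test. Capitals mark GAGGAA, the core of the purine-rich box bound by the myeloid factor PU.1, searched on both strands, so that a match on the opposite strand reads TTCCTC.
C1qb, minus strand, chr4:136886151-136886450: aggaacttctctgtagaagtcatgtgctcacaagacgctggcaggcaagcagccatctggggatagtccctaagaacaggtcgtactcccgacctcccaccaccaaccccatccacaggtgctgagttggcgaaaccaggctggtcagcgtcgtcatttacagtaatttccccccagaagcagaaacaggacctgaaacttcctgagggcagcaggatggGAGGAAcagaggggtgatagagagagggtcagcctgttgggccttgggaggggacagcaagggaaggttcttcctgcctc
C1qc, minus strand, chr4:136892865-136893164: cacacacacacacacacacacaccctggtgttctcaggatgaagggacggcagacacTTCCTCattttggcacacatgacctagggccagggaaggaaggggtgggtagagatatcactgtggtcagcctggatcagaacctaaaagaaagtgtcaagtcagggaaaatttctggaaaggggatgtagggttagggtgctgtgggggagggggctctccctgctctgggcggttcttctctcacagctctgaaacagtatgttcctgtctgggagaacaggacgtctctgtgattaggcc
The match in C1qb began at base -30 from the start, on the gene's strand. The match in C1qc began at base -193, on the opposite strand. The windows of C3ar1 and C5ar1 held none, and 28.3% of all 32851 promoter windows held at least 1. TTCNNNGAA, the motif bound by STAT factors, was searched on both strands as well. It was in none of the 4 windows and in 8.3% of all windows, so the motifs did not overlap in these genes.

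Some arrays stood apart. KO MCAO arrays 2 and 5 had the highest difference between the 3′ and 5′ Gapdh control probe sets among the surgery arrays, at 0.38 and 1.18 on the log2 scale, and they held the lowest value of their group for 6 and 5 of the 13 probe sets described here. WT MCAO array 4 held the lowest value of its group for 11 of 13 probe sets, and its actin 3′ to 5′ difference was 1.70, the highest of its group. WT naive array 6 had a median correlation with its group of 0.82, where the other WT naive arrays had 0.985 to 0.994, with an actin difference of 4.88 and a Gapdh difference of 3.51. Between sham groups, the actin difference was 1.66 ± 0.083 in KO sham and 0.93 ± 0.077 in WT sham arrays (SD, n = 3 each). Some of the results below are also given without arrays that stood apart. Leaving out KO MCAO arrays 2 and 5 together was a choice made after seeing the data.

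After occlusion, complement genes were higher in both genotypes. C1qb, C1qc, Serping1, C3ar1 and C5ar1 rose after MCAO in knockout and in wild type mice, as did the shared C4a and C4b probe set, and none fell. C1qa and Cfb did not pass the test in either genotype. In knockout mice 5 of 7 genes rose and 0 fell, where 16.1% of all genes tested rose, 8.9% fell and 25% were called in either direction. In wild type mice 5 of 7 rose and 0 fell, where 8.68% of all genes rose, 7.27% fell and 15.9% were called. The wild type count was 2 without WT sham array 1, where 1435 genes were called instead of 2901, and 3 without WT sham array 3, where 1671 were. The median change of the 7 genes was 1.2 in knockout and 1.02 in wild type mice on the log2 scale, against medians of -0.00 and 0.05 over all genes. Calls come from limma, with p-values adjusted by the method of Benjamini and Hochberg across all genes (threshold 0.05), and so does every SE and adjusted p below unless a permutation test is named. After centring each array on its median, C1qb, C1qc, Serping1 and C3ar1 were still called higher in both genotypes, while C5ar1 was called in wild type mice and not in knockout mice (0.67, adjusted p = 0.0819).

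**Figure D1:**
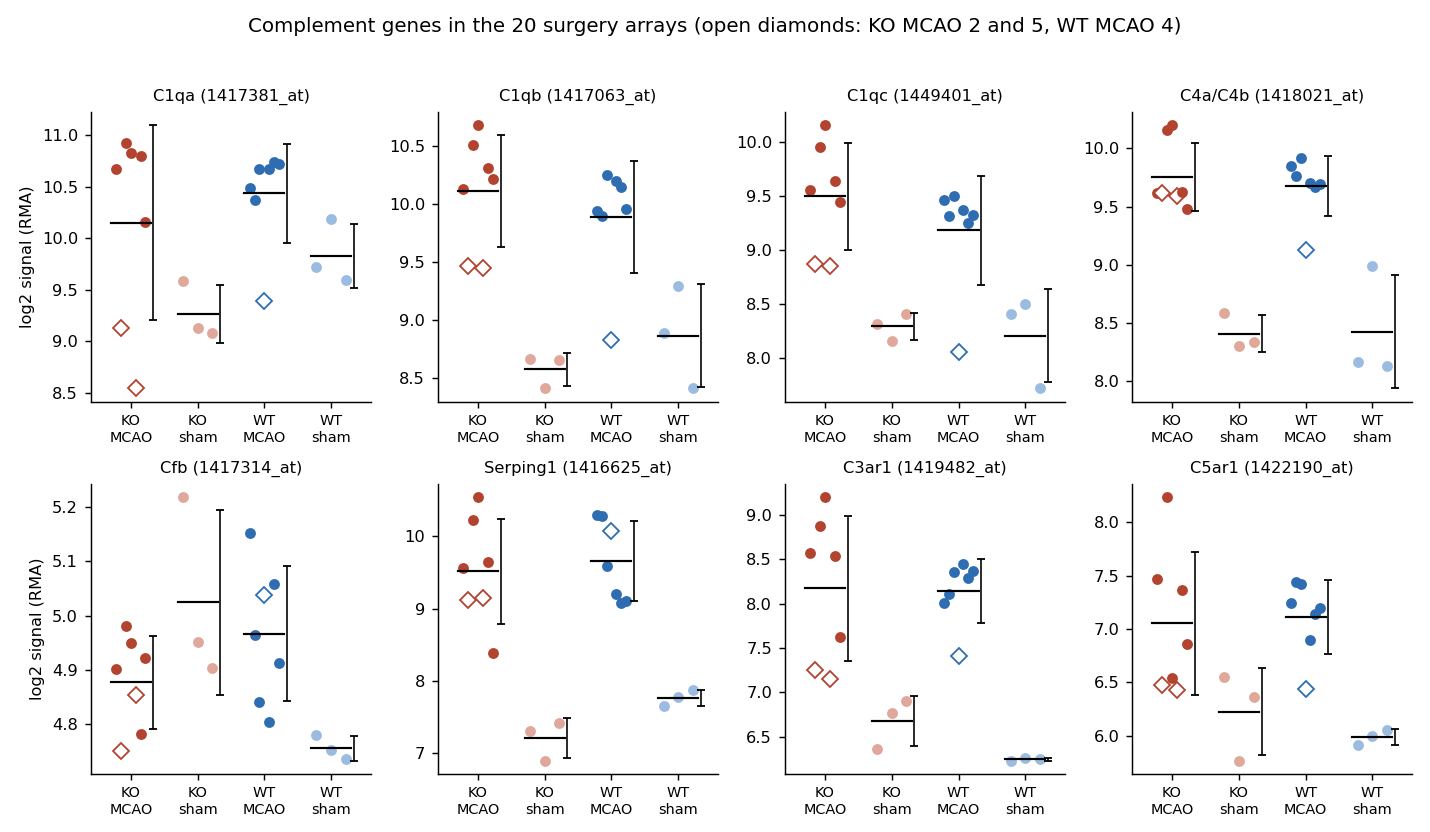
Log2 signals of the complement genes on each of the 20 surgery arrays, with 1 panel per probe set; horizontal lines are group means and bars are SD (n = 7 for MCAO, 3 for sham). Serping1, C3ar1 and the C4a and C4b probe set lie above the sham arrays on every MCAO array of both genotypes, while open diamonds mark KO MCAO 2 and 5 and WT MCAO 4, which are low for the C1q genes.

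Of the C1q chains, C1qb was the most changed. In KO MCAO arrays it had a lowest, median and highest log2 signal of 9.45, 10.22 and 10.68, against 8.66, 8.41 and 8.65 in the KO sham arrays. All 7 KO MCAO arrays were above all 3 sham arrays. The change was 1.54 (SE 0.28, adjusted p = 0.000525), a 2.90-fold higher signal.

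After MCAO in wild type mice, C1qb had 8.83, 9.95 and 10.25, against 8.89, 9.29 and 8.41 in the WT sham arrays. The groups overlapped through WT MCAO array 4, which was below 2 of the 3 sham arrays. The change was 1.02 (SE 0.28, adjusted p = 0.0159), and without that array it was 1.2 (adjusted p = 0.00137). Leaving out WT sham array 1 ended the call (1.04, adjusted p = 0.0608), and so did leaving out WT sham array 3 (0.80, adjusted p = 0.119).

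Both further probe sets of C1qb, fitted among all 45037 probe sets, rose in knockout mice. 1437726_x_at rose by 1.72 (SE 0.26, adjusted p = 0.000123) and 1434366_x_at by 1.26 (SE 0.20, adjusted p = 0.000259). In wild type mice 1437726_x_at rose by 0.84 (adjusted p = 0.0386), while 1434366_x_at changed by 0.51 and was not called (adjusted p = 0.115). Among all probe sets, 18.7% were called in knockout and 10.7% in wild type mice. The suffix of these probe sets means that their probes can also bind other transcripts.

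C1qc, the gene of another chain, had 8.85, 9.55 and 10.16 as lowest, median and highest signal in KO MCAO arrays, against 8.32, 8.16 and 8.41 in KO sham arrays. The groups did not overlap, which held for 4 of the 7 genes in knockout mice and for 24.8% of all genes. The change was 1.2 (SE 0.28, adjusted p = 0.00442). With the actin 3′ to 5′ difference as a covariate it was 0.84 and no longer called (adjusted p = 0.0556).

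C1qc had 8.06, 9.32 and 9.50 in WT MCAO arrays, against 8.41, 8.50 and 7.72 in WT sham arrays. Here WT MCAO array 4 was again below 2 of the sham arrays, and the other 6 MCAO arrays were above all 3. The change was 0.97 (SE 0.28, adjusted p = 0.0239), or 1.16 without array 4 (adjusted p = 0.00168). Like C1qb, it was not called when WT sham array 1 (1.07, adjusted p = 0.055) or WT sham array 3 (0.73, adjusted p = 0.16) was left out.

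C1qa, the third chain, spread the most of the 7 genes between KO MCAO arrays by the probe set that stands for each (SD 0.95). It had 8.54, 10.68 and 10.93 as lowest, median and highest signal in KO MCAO arrays, against 9.59, 9.13 and 9.08 in KO sham arrays. Most KO MCAO arrays were above the sham arrays, but array 2 had 9.13 and array 5 had 8.54, among or below them. The change of 0.89 was not called (SE 0.41, adjusted p = 0.112). Without array 5 it was 1.16 (adjusted p = 0.0161), and without arrays 2 and 5 it was 1.42 (SE 0.25, adjusted p = 0.000637). Leaving out both was chosen after seeing the data. Both were low for C1qa, so the change had to rise without them. Those 2 arrays therefore decided whether C1qa was called in knockout mice.

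In WT MCAO arrays C1qa had 9.39, 10.68 and 10.75, against 9.72, 10.18 and 9.59 in WT sham arrays. WT MCAO array 4 was below all 3 sham arrays and the other 6 were above them. The change of 0.61 was not called (SE 0.41, adjusted p = 0.318), nor was that without array 4 (0.78, adjusted p = 0.185).

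The probe set shared by C4a and C4b rose in both genotypes. It had 9.48, 9.61 and 10.20 in KO MCAO arrays, against 8.59, 8.30 and 8.34 in KO sham arrays, a change of 1.35 (SE 0.19, adjusted p = 8.66e-05). It had 9.13, 9.71 and 9.92 in WT MCAO arrays, against 8.16, 8.99 and 8.13 in WT sham arrays, a change of 1.25 (SE 0.19, adjusted p = 0.000316). In both genotypes every MCAO array was above every sham array. WT sham array 2, at 8.99, was close to the lowest WT MCAO array, at 9.13. How the signal divides between the 2 genes cannot be told from this probe set.

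Cfb, the gene of factor B, was dim, with a mean signal above only 19.2% of all genes in the surgery arrays. It had 4.75, 4.90 and 4.98 in KO MCAO arrays, against 5.22, 4.95 and 4.90 in KO sham arrays, and the change of -0.15 was not called (SE 0.09, adjusted p = 0.238). After centring each array on its median over genes, which moved the median change of all genes in knockout mice to -0.16, the change of Cfb was -0.30 and was called (adjusted p = 0.0252). After repeated quantile normalization it was -0.03 (adjusted p = 0.877). Of 30 other settings, 29 gave no call.

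In WT MCAO arrays Cfb had 4.80, 4.96 and 5.15, against 4.78, 4.75 and 4.74 in WT sham arrays. Each WT MCAO array was above all 3 sham arrays. In wild type mice 4 of the 7 genes did not overlap, and neither did 19.9% of all genes. The change of 0.21 was not called (SE 0.09, adjusted p = 0.12).

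Serping1 codes for the C1 inhibitor, which blocks C1r and C1s. In knockout mice it had the largest change of the 7 genes by the probe set that stands for each, though C3ar1 1442082_at changed by 2.43. Its lowest, median and highest signal were 8.39, 9.57 and 10.54 in KO MCAO arrays, against 7.31, 6.90 and 7.42 in KO sham arrays. All 7 MCAO arrays were above the sham arrays, and the change was 2.31 (SE 0.35, adjusted p = 9.4e-05), a 4.96-fold higher signal.

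Serping1 had 9.08, 9.59 and 10.29 in WT MCAO arrays, against 7.65, 7.78 and 7.87 in WT sham arrays. The groups did not overlap, and the change was 1.89 (SE 0.35, adjusted p = 0.000938), or 3.71-fold. WT MCAO array 4, low for the C1q genes, had 10.08 for Serping1 and was below only arrays 1 and 2, at 10.29 and 10.28. The call was kept in both genotypes under all 31 other settings tried.

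C3ar1, the gene of the C3a receptor, rose in both genotypes on all 3 of its probe sets. 1419482_at, which stands for the gene, had 7.15, 8.54 and 9.21 in KO MCAO arrays, against 6.36, 6.77 and 6.90 in KO sham arrays. The groups did not overlap, with arrays 5 and 2 closest to the sham arrays. The change was 1.5 (SE 0.34, adjusted p = 0.00343). Without these low arrays, a choice made after seeing the data, it was 1.88 (SE 0.26, adjusted p = 7.04e-05).

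C3ar1 had 7.41, 8.29 and 8.45 in WT MCAO arrays, against 6.23, 6.26 and 6.25 in WT sham arrays. The sham arrays lay close together and all MCAO arrays were above them. The change was 1.89 (SE 0.34, adjusted p = 0.000812). The dimmer probe sets 1419483_at and 1442082_at rose by 2.06 and 2.43 in knockout mice (adjusted p = 0.00362 and 0.000416) and by 2.09 and 2.26 in wild type mice (adjusted p = 0.00507 and 0.00134).

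C5ar1, the gene of the C5a receptor, was called in both genotypes. By the probe set that stands for the gene the call was less firm in knockout mice, while on its other probe set it was not. 1422190_at had 6.43, 6.86 and 8.24 in KO MCAO arrays, against 6.55, 5.77 and 6.36 in KO sham arrays. Arrays 2, 4 and 5 lay between the sham values and the groups overlapped. The change was 0.83 (SE 0.30, adjusted p = 0.0473), and under 22 of 31 other settings it was no longer called, with the same direction. Without KO MCAO arrays 2 and 5, a choice made after seeing the data, it was 1.07 (adjusted p = 0.0129).

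C5ar1 had 6.44, 7.20 and 7.44 in WT MCAO arrays, against 5.91, 6.0 and 6.06 in WT sham arrays, without overlap. The change was 1.12 (SE 0.30, adjusted p = 0.0139), and it was not called without WT sham array 1 (1.08, adjusted p = 0.067). The other probe set, 1439902_at, rose by 1.99 in knockout (SE 0.40, adjusted p = 0.00195) and by 1.67 in wild type mice (SE 0.40, adjusted p = 0.0107). On that probe set the MCAO arrays did not overlap the sham arrays in either genotype.

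**Figure D2:**
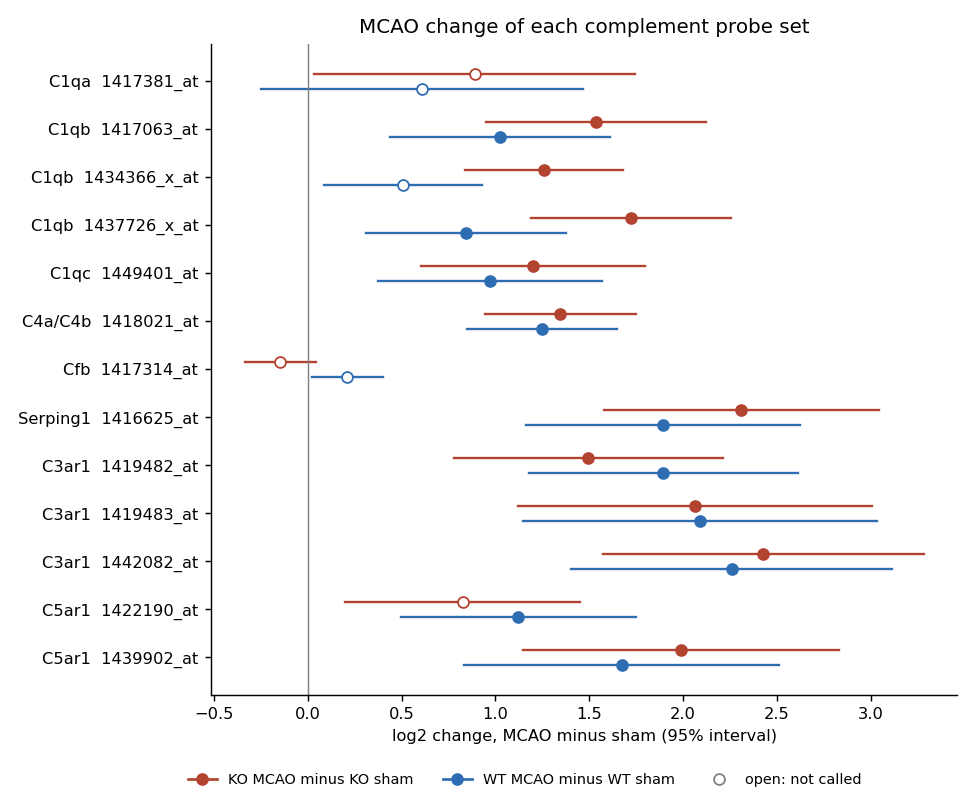
MCAO minus sham change on the log2 scale with its 95% interval for each of the 13 probe sets, from the fit over all probe sets (n = 7 and 3 per genotype); filled points were called at an adjusted p under 0.05. In this fit C5ar1 1422190_at was not called in knockout mice (adjusted p = 0.0595), and the interval with the highest lower end is that of Serping1 in knockout mice (1.58) and of C3ar1 1442082_at in wild type mice (1.40).

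The difference between the MCAO changes of the genotypes, knockout minus wild type, was called for 0 of the 7 genes, where 9.59% of all genes were called, 4.09% with a positive and 5.5% with a negative difference. It was 0.28 for C1qa (95% interval -0.92 to 1.48), 0.51 for C1qb (-0.31 to 1.33) and 0.23 for C1qc (-0.61 to 1.06). It was 0.42 for Serping1 (-0.61 to 1.44), -0.40 for C3ar1 (-1.40 to 0.61) and -0.30 for C5ar1 (-1.17 to 0.58). Differences of either sign lie within each of these intervals.

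Cfb had the smallest p of the 7 in this test, with a difference of -0.36 (95% interval -0.62 to -0.09, adjusted p = 0.0726). After median centring it was -0.46 and called (adjusted p = 0.0473). Over 29 other settings, this one included, it ranged from -0.46 to -0.09, and 28 gave no call. Among all probe sets 7.41% were called in this test. The shared C4a and C4b probe set differed by 0.10 (SE 0.27, adjusted p = 0.834). Of the further C1qb probe sets, 1437726_x_at differed by 0.88 (SE 0.36, adjusted p = 0.118) and 1434366_x_at by 0.75 (SE 0.29, adjusted p = 0.0953).

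KO MCAO arrays were also set against WT MCAO arrays directly. Of the 7 genes 0 were called, where 0.044% of all genes were (0.0165% higher and 0.0275% lower). The groups overlapped for all 7, and 0.368% of all genes did not overlap. C1qc had the largest difference, 0.31 (95% interval -0.14 to 0.77, adjusted p = 0.456), with group means of 9.50 ± 0.50 in KO MCAO and 9.18 ± 0.50 in WT MCAO arrays (SD, n = 7 each). C3ar1 differed by 0.03 (-0.52 to 0.58), with 8.17 ± 0.82 in KO MCAO and 8.14 ± 0.36 in WT MCAO arrays. Without KO MCAO arrays 2 and 5, left out after seeing the data, the difference of C1qc was 0.57 (adjusted p = 0.401). That of C1qb was 0.48 (adjusted p = 0.416), and neither was called. Without WT MCAO array 4 that of C1qc was 0.13 (adjusted p = 0.773).

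Between KO sham and WT sham arrays, 0 of 7 genes were called, where 6.05% of all genes were (3.52% higher and 2.53% lower) and 4.67% of all probe sets. The values did not overlap for 4 of the 7, as they did not for 42.2% of all genes. Cfb had 5.22, 4.95 and 4.90 in KO sham and 4.78, 4.75 and 4.74 in WT sham arrays, a difference of 0.27 (SE 0.11, adjusted p = 0.123). C3ar1 was also above the WT sham values on all KO sham arrays (0.43, adjusted p = 0.514), while Serping1 (-0.56, adjusted p = 0.4) and C1qa (-0.57, adjusted p = 0.467) were below them. Serping1 was called when only the sham arrays were fitted (adjusted p = 0.0308). The actin 3′ to 5′ differences of these arrays, given above, differed between the sham groups too, and their part in these values was not tested.

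Among KO MCAO arrays the C1q genes and C3ar1 moved together, and no pair with Cfb, Serping1 or C5ar1 passed. The arrays low for them, 2 and 5, had the highest Gapdh 3′ to 5′ differences (0.38 and 1.18), whose part in these relations was not tested. Arrays 2 and 5, and arrays 1 and 6, were the closest pairs of this group, each with r = 0.997 over all probe sets. The permutation tests treat all 7 arrays as separate units. C1qb and C1qc correlated across the 7 arrays with Pearson's r = 0.99 (exact permutation p = 0.000595, adjusted p = 0.00714) and Spearman's rho = 0.96 (exact p = 0.00278, adjusted p = 0.0259). Left without arrays 2 and 5, the farthest from the median, r was 0.97. C1qc and C3ar1 had r = 0.96 (exact p = 0.000595, adjusted p = 0.00714) and rho = 0.96 (exact p = 0.00278), with r = 0.87 without the same arrays. C1qa and C3ar1 had r = 0.91 (exact p = 0.00119, adjusted p = 0.0102) and rho = 0.93 (exact p = 0.00675), with r = 0.92 without them. The other pairs that passed held less well without arrays 2 and 5. For C1qa with C1qb r fell from 0.94 to 0.57, for C1qa with C1qc from 0.92 to 0.72, and for C1qb with C3ar1 from 0.91 to 0.73. Serping1 had r of 0.57, 0.61 and 0.73 with C1qa, C1qb and C1qc, and 0.93, 0.78 and 0.90 without those arrays.

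In total 84 pairs were tested, 21 in each group of 7 or 8 arrays, and p-values were adjusted over all of them. In KO MCAO arrays 6 of 21 pairs passed by Pearson's r, all among the C1q genes and C3ar1, and all 21 correlations were positive with a median of 0.67. Of the 6, 3 also passed by rho. C3ar1 and C5ar1, the receptor genes, had r = 0.56 (exact p = 0.182, adjusted p = 0.293) and rho = 0.64 (exact p = 0.139).

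In WT MCAO arrays 0 of 21 pairs passed after adjustment, with a median r of 0.50. C1qa and C1qc had r = 0.94 (exact p = 0.0873, adjusted p = 0.21) but rho = 0.14 (exact p = 0.783), and r = -0.67 without arrays 2 and 4. C1qb and C1qc had r = 0.96 (exact p = 0.0423, adjusted p = 0.142), rho = 0.64 (exact p = 0.139) and r = -0.29 without arrays 3 and 4. Without array 4 alone, a choice made after seeing the data, r was -0.17 for C1qa with C1qc and 0.23 for C1qb with C1qc (6 arrays). C1qa and Serping1 ran opposite to each other, with r = -0.57 (exact p = 0.117, adjusted p = 0.239) and rho = -0.86 (exact p = 0.0238, adjusted p = 0.118), neither of which passed.

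**Figure D3:**
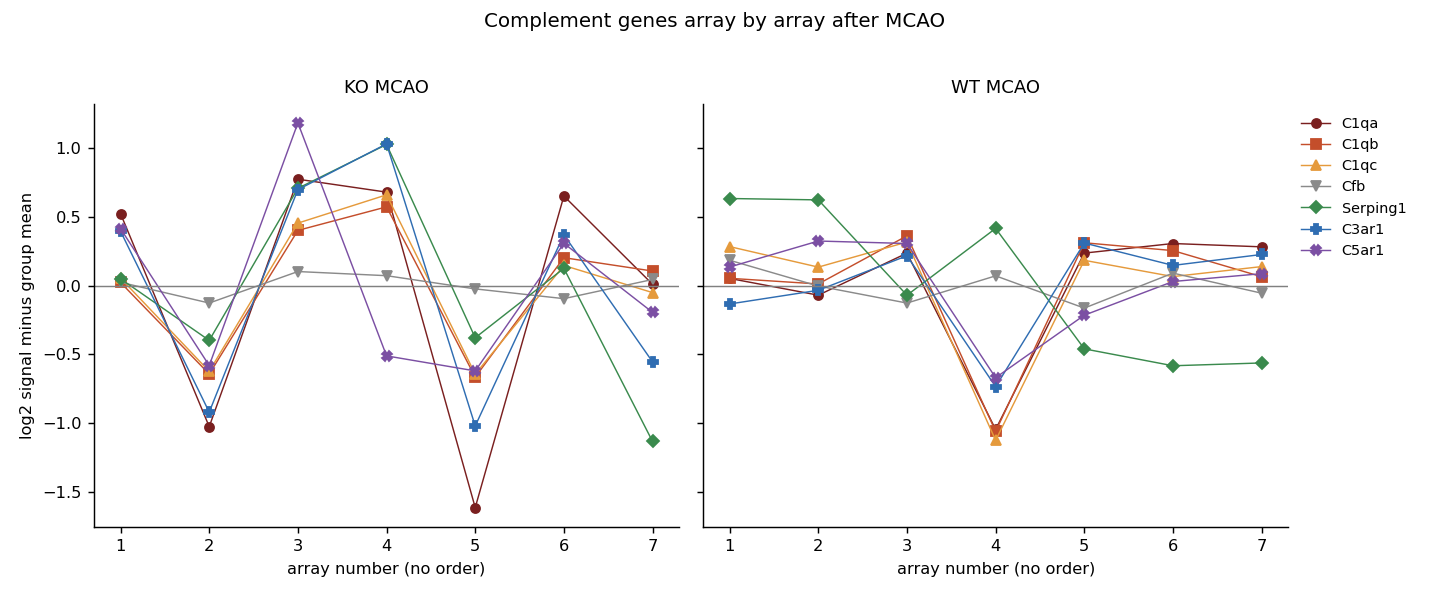
Log2 signal of each gene minus its group mean on each MCAO array (7 per panel); lines join the values of 1 gene and array numbers have no order. In KO MCAO the C1q genes and C3ar1 are low together on arrays 2 and 5 and high on 3 and 4, and in WT MCAO they are low on array 4, where Serping1 is above its mean.

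The genes most like each member across the 14 MCAO arrays were found with group means taken off, among 10910 genes in the upper 60% by signal. They are given as a description, since all share the same arrays. C3ar1 was most like Tyrobp, the gene of the signalling adaptor of microglia and other myeloid cells (r = 0.98), Orai1 (0.96) and Plek (0.96). C1qa was most like Orai1, the gene of a calcium channel (0.97), Ifi27 (0.96) and Ctsd, the gene of a lysosomal protease (0.95). C1qb was most like Hebp1 (0.97), Add3 (0.96) and Cdc42ep2 (0.95), and C1qc was most like Fxyd1 (0.97), Txnrd1 (0.96) and Atic (0.96).

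Serping1 was most like Cp, the gene of the copper protein ceruloplasmin (0.97), Fbln1 (0.96) and Aldh1a2, the gene of an enzyme of retinoic acid synthesis (0.96). C5ar1 was most like Ncl (0.90), Zfp219 (0.89) and Sdc2 (0.89), and Cfb was most like Arid5a (0.84), Aldh4a1 (0.78) and Ptpa (0.75). Over the 15 naive arrays C3ar1 and Tyrobp had r = 0.29, and without WT naive array 6 they had r = -0.22. Serping1 and Cp had r = -0.64, and 0.56 without that array, while C1qa and Orai1 had 0.89, and -0.42 without it. Cfb and Arid5a had 0.85, and 0.90 without it. C1qb and Hebp1 had 0.66, and 0.61 without it. C1qc and Fxyd1 had 0.88, and 0.11 without it, while C5ar1 and Ncl had -0.93, and 0.07 without it.

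Other complement genes were read from the same fit, 42 of them measured. Their counts stand beside the shares of all genes, of which 16.1% rose and 8.9% fell in knockout mice (median -0.00) and 8.68% rose and 7.27% fell in wild type mice (median 0.05). Among 11 genes of the classical and lectin pathways, 2 rose and 3 fell after MCAO in knockout mice (median -0.08), and 3 rose and 0 fell in wild type mice (median 0.14). C1ra, the gene of the protease C1r, rose by 1.01 in knockout (SE 0.23, adjusted p = 0.00354) and by 1.13 in wild type mice (SE 0.23, adjusted p = 0.00218). C1s1, the gene of C1s, rose by 0.58 in knockout (adjusted p = 0.0123) and by 0.49 in wild type mice (adjusted p = 0.0417). Fcnb, a ficolin gene of the lectin pathway, fell by 0.32 in knockout mice (adjusted p = 0.0418), as did Mbl1, the gene of a mannose-binding lectin, by 0.29 (adjusted p = 0.05 when rounded, just under the threshold).

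Colec11, a collectin gene of the lectin pathway, went opposite ways in the fit as reported. It fell by 0.31 in knockout mice (adjusted p = 0.026) and rose by 0.32 in wild type mice (adjusted p = 0.0321), and the difference of -0.64 passed its test (adjusted p = 0.0182). In the sham arrays it was higher in KO than in WT by 0.45 (adjusted p = 0.0342). After repeated quantile normalization neither change was called (-0.19 in knockout mice, adjusted p = 0.142, and 0.17 in wild type mice, adjusted p = 0.231). After median centring the wild type change was 0.26 and not called (adjusted p = 0.14).

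Among 7 genes of the alternative and terminal pathways, 0 rose and 2 fell in knockout mice (median -0.21), and 0 rose and 1 fell in wild type mice (median 0.20). Hc, the gene of C5, fell by 0.48 in knockout mice (adjusted p = 0.00774) and changed by 0.33 in wild type mice (adjusted p = 0.0762). C9, the pore-forming component, fell by 0.45 in knockout mice (adjusted p = 0.0163) and changed by 0.31 in wild type mice (adjusted p = 0.111). The difference passed for both (-0.81 for Hc, adjusted p = 0.0182, and -0.77 for C9, adjusted p = 0.0217). Both were also higher in KO sham than in WT sham arrays, by 0.64 and 0.59 (adjusted p = 0.023 and 0.0349). Both were about as dim as Cfb, with group means in the surgery arrays of 4.16 to 4.80 for Hc and 4.52 to 5.10 for C9. Cfp, the gene of properdin, fell by 0.56 in wild type mice (adjusted p = 0.00402).

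Among 15 regulators, 4 rose in knockout mice (median 0.07) and 3 in wild type mice (median 0.16), and 0 fell. C1qbp, which codes for a protein first found by its binding to C1q, rose by 0.68 in knockout and 0.42 in wild type mice (adjusted p = 0.000269 and 0.0168). Cr1l, the gene of the membrane regulator Crry, rose by 0.62 in knockout and 0.51 in wild type mice (adjusted p = 0.00873 and 0.0367). Cd55, a decay accelerator, rose by 0.51 in knockout mice (adjusted p = 0.0082) and changed by -0.10 in wild type mice, a difference of 0.61 (adjusted p = 0.0446). Cd55 was dim too, with group means in the surgery arrays of 4.33 to 4.84. KO sham differed from WT sham arrays by -0.43 (adjusted p = 0.0911) and KO MCAO from WT MCAO arrays by 0.18 (adjusted p = 0.364), neither called. Clu, the gene of clusterin, rose by 0.35 in knockout mice (adjusted p = 0.0246), and Cfi, the gene of factor I, rose by 0.60 in wild type mice (adjusted p = 0.0122).

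Among 9 receptors, 3 rose and 1 fell in knockout mice (median 0.21), and 3 rose and 0 fell in wild type mice (median 0.08). Itgb2, which codes for the beta chain of complement receptor 3, rose by 1.62 in knockout (SE 0.27, adjusted p = 0.00027) and 1.49 in wild type mice (SE 0.27, adjusted p = 0.000915). Itgam, the alpha chain of that receptor, rose by 0.70 in knockout mice (adjusted p = 0.00631) and changed by 0.42 in wild type mice (adjusted p = 0.102). Cd93, once taken for a C1q receptor, rose by 1.51 in knockout and 1.29 in wild type mice (adjusted p = 0.00972 and 0.033). Itgax rose by 0.40 in wild type mice (adjusted p = 0.0302), and Cr2 fell by 0.36 in knockout mice (adjusted p = 0.0385).

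Of the 42 genes, 22 (52.4%) had MCAO changes of opposite sign in the genotypes, as did 51.4% of all genes. The difference passed the test for 4 (9.52%, where 9.59% of all genes passed): Colec11, C9, Hc and Cd55. The other 18 were Fcna, Fcnb, Masp1, Masp2, Mbl1, Mbl2, C6, C8a, C8b, Cd46, Cd55b, Cfhr2, Cpn1, Cr2, Itgax, Lrp1, Megf10 and Vsig4. Of the 15 genes called in knockout mice, 15 kept their direction after median centring and 14 their call, and after repeated quantile normalization 15 kept their direction and 9 their call. Of the 10 called in wild type mice, all 10 kept their direction under both, and 9 and 7 kept their call. Of the 4 differences, 3 were still called after median centring, where Cd55 was not (0.51, adjusted p = 0.0519). After quantile normalization 1 was, with Hc at -0.54 (adjusted p = 0.0531), C9 at -0.49 (adjusted p = 0.109) and Colec11 at -0.37 (adjusted p = 0.148). With the actin difference as a covariate, 8 of all genes passed the test of the difference, against 1744 without it.

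**Figure D4:**
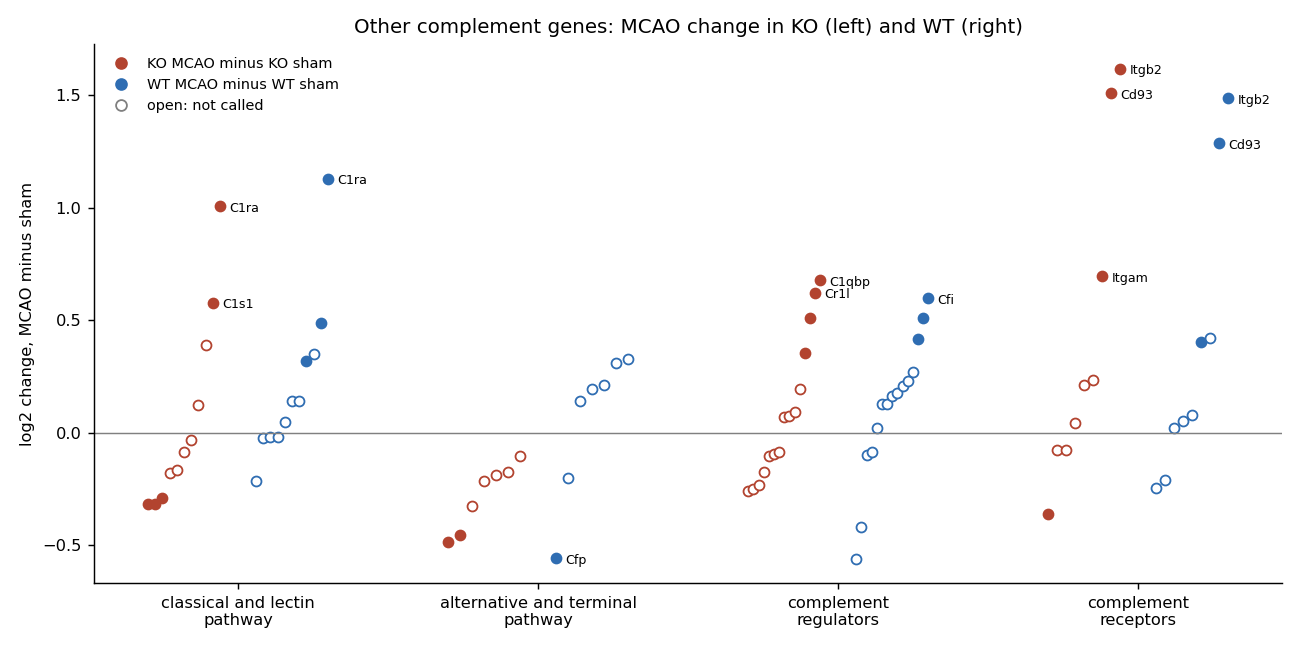
MCAO minus sham change on the log2 scale of 42 other complement genes in 4 lists, knockout left of wild type in each list; filled points were called at an adjusted p under 0.05 (n = 7 and 3 per genotype). C1ra, Itgb2 and Cd93 lie above 1 in both genotypes, and the alternative and terminal pathway list holds no gene that rose.

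Markers of the cells that carry or make these proteins moved after MCAO too, where 16.1% of all genes rose and 8.9% fell in knockout and 8.68% rose and 7.27% fell in wild type mice. Among 12 markers of homeostatic microglia, 2 rose and 6 fell in knockout mice (median -0.32) and 0 rose and 6 fell in wild type mice (median -0.54). P2ry12, which codes for an ADP receptor of microglia, fell in both genotypes, with changes of -1.62 in knockout and -2.71 in wild type mice (adjusted p = 8.1e-05 and 3.31e-07). The mean log2 signal of the 12 markers was 6.76 to 7.27 in KO MCAO arrays, against 7.30 to 7.39 in KO sham arrays. It was 6.41 to 6.89 in WT MCAO arrays, against 7.48 to 7.69 in WT sham arrays.

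Among 12 markers of monocytes and macrophages, 7 rose in knockout and 5 in wild type mice, and 0 fell. Their mean log2 signal was 5.62 to 7.19 in KO MCAO arrays, against 5.39 to 5.58 in KO sham arrays. It was 6.22 to 6.47 in WT MCAO arrays, against 5.31 to 5.54 in WT sham arrays. Of 9 neutrophil markers, 2 rose in each genotype, S100a8 and S100a9, and 3 fell in knockout mice. All 15 markers of reactive astrocytes rose in both genotypes. The part of these cells in the changes of the complement genes was not tested.

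In naive mice the comparison of genotypes cannot be told apart from how the arrays were summarised. Pairs of KO naive arrays shared 3.87% to 6.38% of their values exactly, while no KO naive array shared 1 exact value with a WT naive array, and the lowest values on the arrays did not overlap (3.19 to 3.28 in KO naive, 3.49 to 3.73 in WT naive). C5ar1 shows it, with a rounded 5.86 on 4 of the 7 KO naive arrays. The values are therefore given as levels, and their differences are not read as an effect of the genotype.

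The C1q genes were readily detected without surgery. C1qa had a lowest, median and highest signal of 9.45, 9.91 and 9.97 in KO naive arrays, and 5.87, 9.97 and 10.35 in WT naive arrays. C1qb had 9.51, 9.62 and 9.85 in KO naive and 5.68, 9.41 and 9.82 in WT naive arrays. C1qc had 9.09, 9.29 and 9.43 in KO naive and 7.22, 8.82 and 9.20 in WT naive arrays. The lowest WT value of each was on array 6, and without it the lowest were 9.67, 9.02 and 8.47. On the further C1qb probe sets 1434366_x_at and 1437726_x_at, array 6 was instead the highest WT naive array (8.92 and 8.40).

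The C4a and C4b probe set had 9.11, 9.15 and 9.36 in KO naive and 8.38, 9.16 and 9.31 in WT naive arrays. Serping1 had 8.56, 8.66 and 8.67 in KO naive and 7.29, 8.53 and 8.78 in WT naive arrays. Cfb had 5.66, 5.85 and 6.05 in KO naive and 5.70, 5.92 and 6.44 in WT naive arrays. Again array 6 was the lowest WT naive array for Serping1 and the C4 probe set, but not for Cfb.

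C3ar1 had 6.41, 6.51 and 6.69 in KO naive and 6.04, 6.30 and 6.65 in WT naive arrays. C5ar1 had 5.71, 5.86 and 5.91 in KO naive and 5.44, 5.62 and 6.44 in WT naive arrays. For both receptor genes array 6 was the highest WT naive array, the reverse of its place for the C1q genes.

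Fitted over the 15 naive arrays, 0 of 7 genes were called, where 14.7% of all genes were (6.37% higher and 8.31% lower). The groups overlapped for all 7, and 10.8% of all genes did not overlap. Among all probe sets 20.1% were called. Without WT naive array 6, 36.5% of all genes and 3 of the 7 were called: C1qc (0.43, SE 0.12, adjusted p = 0.00915), C3ar1 (0.28, SE 0.06, adjusted p = 0.00321) and C5ar1 (0.24, SE 0.05, adjusted p = 0.00119). Further probe sets of these genes gave other values. C5ar1 1439902_at was lower in KO naive arrays, by 0.24 (-0.24, adjusted p = 0.0313), and C3ar1 1419483_at and 1442082_at differed by -0.04 each (adjusted p = 0.644 and 0.718). C1qb 1437726_x_at was higher by 0.65 (adjusted p = 0.0461), while 1417063_at, which stands for C1qb, differed by 0.22 and was not called (adjusted p = 0.192).

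**Figure D5:**
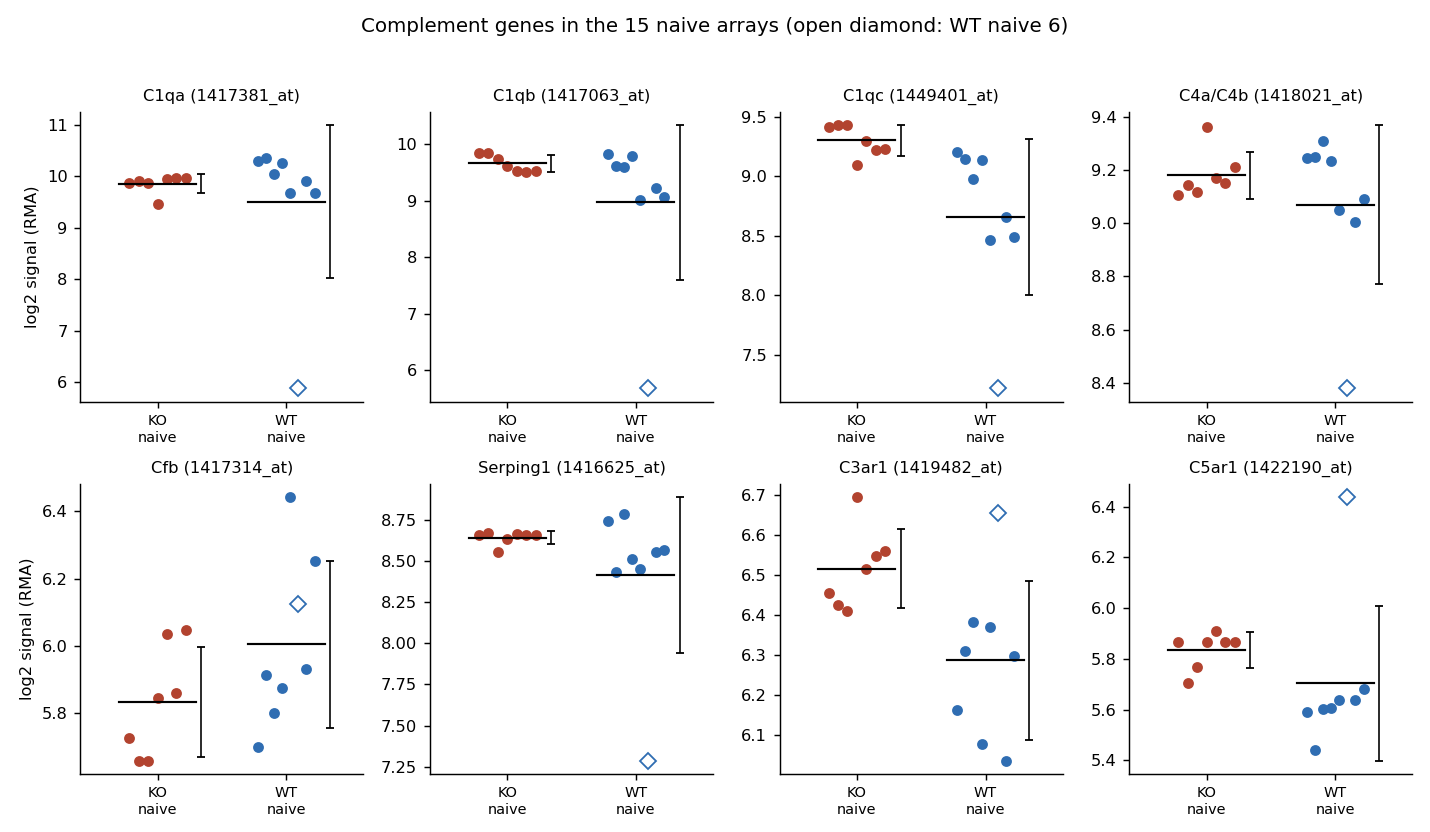
Log2 signals of the complement genes on each of the 15 naive arrays, by the probe set that stands for each gene, with group means and SD (7 KO naive, 8 WT naive); the open diamond is WT naive array 6. That array lies far below the others for the C1q genes, the C4a and C4b probe set and Serping1, and above them for C5ar1; on the 2 further C1qb probe sets, not plotted, it was the highest of its group (8.92 and 8.40).

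Across the 8 WT naive arrays C1qa and C1qb had r = 0.996 (exact p = 0.000422, adjusted p = 0.00714) and rho = 0.93 (exact p = 0.00223), with r = 0.99 without arrays 2 and 6. C1qa and C1qc had r = 0.96 and rho = 0.98 (exact p = 0.000124 and 0.000397), and r = 0.99 without the same arrays. C1qb and C1qc had r = 0.97 and rho = 0.98 (exact p = 5e-05 and 0.000397), and r = 0.98 without arrays 1 and 6. The C1q genes thus moved together among the WT naive arrays other than array 6 as well. WT naive arrays 1, 2 and 4 were close to each other (r = 0.997 to 0.998 over all probe sets), and the permutation tests treat all 8 arrays as separate units. C5ar1 ran opposite to C1qa (r = -0.99, exact p = 0.000248, adjusted p = 0.00694) and had r = -0.87 without arrays 2 and 6.

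Among the 7 KO naive arrays, whose values repeat, 1 of 21 pairs passed. C1qc and C3ar1 had r = -0.98 (exact p = 0.000595, adjusted p = 0.00714) and rho = -0.96 (exact p = 0.00278), with r = -0.98 without arrays 3 and 4. C1qa and C1qb had r = -0.07 there (exact p = 0.94), unlike in the other groups, though the difference between groups was not tested.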

How the data were processed

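The values are log2 expression signals that the authors deposited; the submitters' processing notes name RMA as the tool, without a version. Naive arrays were normalized separately from surgery arrays, per the labels. Of 45101 probe sets, 64 were controls, 34945 had 1 symbol in the platform annotation, 932 had several and 9160 none; 34741 were matched to RefSeq through their Entrez ID. The brightest probe set on average stood for each of 18193 genes. Group means were fitted with limma 3.58.1 (R 4.3.3; empirical Bayes) to 20 surgery and to 15 naive arrays, and the fit was repeated on 45037 probe sets. Correlations had exact two-sided permutation tests (scipy 1.17.1). The fit was tested on simulated data.

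The members and gene lists were chosen with earlier results of these data known. Named genes were all members, up to 4 called genes of each complement list per comparison, genes of opposite sign, and the 3 genes most like each member. Deviations of same-numbered arrays from their group means correlated at -0.28 to 0.36. Differently numbered arrays were not set beside them, so this does not settle whether numbers pair arrays. The fit as reported used no pairing. Alternatives covered scaling, probe sets, dim genes, the prior, an actin covariate, a replicate block and left-out arrays. Values of the deleted receptor gene are not reported here. The number of arrays limits the precision.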

Additional observations from a re-analysis of the deposited data

Results flagged for a closer look

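Of 52 sets of values (1 probe set in 1 group of 7 or 8 arrays), 18 held an array far from the rest by Dixon's test, where chance flags about 1 in 20. They came from few arrays. WT MCAO array 4 was the low array for C1qa (9.39), C1qb (8.83), C1qc (8.06), the C4a and C4b probe set (9.13) and C3ar1 1419482_at (7.41) and 1442082_at (5.70). WT naive array 6 was low for C1qa (5.87), C1qb (5.68), C1qc (7.22), the C4a and C4b probe set (8.38) and Serping1 (7.29). The same array was high for C3ar1 1419483_at (5.94) and 1442082_at (5.38) and for C5ar1 (6.44). It was also the highest array of its group for the further C1qb probe sets, at 8.92 and 8.40, while it was the lowest for the probe set that stands for the gene.

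Among KO naive arrays, array 4 was low for C1qa (9.45) and high for the C4a and C4b probe set (9.36), array 3 was low for Serping1 (8.56) and array 1 was low for C5ar1 1439902_at (4.52).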

How the results depend on the processing

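Each gene's change was recomputed under other settings, giving 1231 values for 42 combinations of gene and comparison. The call was the same in 1190, lost in 30 and gained in 11. No called value changed sign, and 26 values changed sign where neither was called. The causes of these shifts were not tested, apart from what each setting leaves out by construction.

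For MCAO against sham in knockout mice, 4545 genes were called. Over all probe sets 8429 probe sets were called, and with the actin covariate 2856 genes and 3 of the 7 complement genes. Leaving out 1 array gave 2337 to 5395 genes and 4 to 6 complement genes. In wild type mice 2901 genes were called, 4816 over all probe sets, and 1435 to 3231 genes and 2 to 5 complement genes with 1 array left out.

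With the replicate number as a block, the counts were 3926 in knockout and 2024 in wild type mice, and 3 complement genes were called in wild type mice, where C1qb and C1qc were lost (adjusted p = 0.0572 and 0.0573 in limma). Their changes under the block were 1.06 for C1qb and 1.08 for C1qc, against 1.02 and 0.97 as reported.

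The difference between genotypes in the MCAO response was called for 1744 genes. It was called for 3336 over all probe sets, 638 with dim genes left out, 169 after repeated quantile normalization, 8 with the actin covariate, 454 without KO MCAO arrays 2 and 5 (chosen after seeing the data) and 0 to 2692 with 1 array left out. After median centring 1 complement gene, Cfb, was called.

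KO MCAO against WT MCAO gave 8 genes. It gave 59 over all probe sets, 986 with the actin covariate, 3 with only the arrays compared, 2 without KO MCAO arrays 2 and 5, 1 with the closest pairs averaged (also chosen after seeing the data) and 3 to 38 with 1 array left out. KO sham against WT sham gave 1101 genes. It gave 2105 over all probe sets, 450 with dim genes left out, 565 after median centring, 71 after quantile normalization, 6 with the actin covariate, 3451 with only the arrays compared (and 1 complement gene, Serping1) and 0 to 1830 with 1 array left out.

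In naive mice 2669 genes were called. The count was 9046 over all probe sets, 357 with dim genes left out, 1514 after quantile normalization, 6243 with the actin covariate (and 3 complement genes) and 2005 to 6641 with 1 array left out (0 to 3 complement genes, 3 without WT naive array 6).

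Of the pairs of genes, 6 in KO MCAO, 1 in KO naive and 5 in WT naive arrays passed by Pearson's r, and 0 in each with the 2 farthest arrays left out. In KO MCAO and KO naive arrays, with 5 arrays left, the smallest exact p was 0.0167. In WT naive arrays, with 6 left, it was 0.00139. So few arrays leave little room to pass adjustment over 84 pairs, and these 0 counts say nothing about stability. Without the 2 arrays the 6 KO MCAO pairs had r of 0.57 to 0.97. With all probe sets of a gene averaged, 2 passed in WT MCAO and 0 in KO naive arrays. Median centring moved the median change of all genes to -0.16 in knockout and -0.14 in naive arrays. The share of called genes that were higher was 64.4% in knockout mice (28.8% after median centring, 49.1% after quantile normalization), 54.4% in wild type mice (37.4% after median centring) and 43.4% in naive mice (7.31% after median centring).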
